A study of Mus musculus with 6 samples.

Results

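The 7 genes Sall1, Sall3, Maf, Mef2a, Mef2c, Bhlhe41 and Tcf4 encode transcription factors that have been linked to the identity of microglia, the resident macrophages of the brain. They were chosen by symbol, and all 7 were found among the 35237 genes of the Cufflinks table and among the 36536 genes of the ALEXA-Seq table, which were made from the same libraries. The study compared bone marrow monocytes (BMDM) with brainstem microglia (BSM) by RNA-Seq, to find transcripts that separate monocytes entering the brain from the cells that live there. BMDM were sorted by FACS as CD11b+ CD45high CD115+ Ly6G- cells of bone marrow, and BSM as CD11b+ CD45low CD115low Ly6G- cells, whose tissue the sample labels give as brain and the series design as brainstem. Each cell type had 3 libraries (biological replicates 1 to 3), each from the cells of several pooled C57BL/6 mice, with no treatment named, aged 6 weeks. Per the labels, replicate 1 of both cell types came from male mice and replicates 2 and 3 from female mice. The RNA was amplified with the Ovation method before paired-end sequencing, and the cells of one library cannot be assigned to single animals. Tissue and cell type changed together, so a difference between marrow and brain cannot be told apart from one between monocytes and microglia.

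Levels are given as FPKM, the number of sequenced fragments of a gene scaled by the length of its exons and by the size of the library, a unit that allows genes to be compared within a library. Summed FPKM ran from 163199 to 194184 in BMDM and from 68288 to 75021 in BSM, and the median gene tested had a log2 difference of -0.81 (BSM minus BMDM, as in all differences here), so differences are also given after quantile normalization, which gave the median gene -0.02. Read numbers are in neither table, so no counting error is given for a value. BSM replicate 1 stood apart. Of the genes tested, 7.42% were listed at 0 in it, against 0.80% to 1.81% in the other 5 libraries. Its RNA also had by far the lowest integrity and yield of the 6 in the study's own quality measurements. The 8 markers of microglia, P2ry12 and Tmem119 among them, summed to 17.6 to 19.7 FPKM in BMDM and 793 to 884 in BSM, whereas 7 monocyte markers led by genes such as Ccr2 summed to 742 to 947 in BMDM and 0.979 to 1.62 in BSM, so that both labels matched their markers. Markers of granulocytes summed to 45.6 FPKM in BMDM replicate 1, 324 in replicate 2 and 81.8 in replicate 3, and to at most 0.07 in BSM. Most of the BMDM sum was Mpo, with 32.7, 181 and 67.1 FPKM, whereas Ly6g of the same list had 0, 0.29 and 0. The other genes of the list were also highest in BMDM replicate 2. Ngp had 2.44, 77.1 and 3.44 FPKM, Elane 9.75, 56.0 and 10.7, Camp 0.39, 5.86 and 0.31, and Ltf 0.35, 3.48 and 0.35.

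Transcription factors of this kind bind short DNA motifs at promoters and enhancers and, in combination with the macrophage factor PU.1, keep a cell's gene programme in place. Sall1 and Sall3 encode zinc finger proteins of the Spalt family that recruit the NuRD repressor complex, and Sall1 is known in the adult brain as a factor of microglia among the macrophages. Maf encodes the basic leucine zipper factor c-Maf, Mef2a and Mef2c encode MADS-box factors of the MEF2 family, Bhlhe41 encodes a basic helix-loop-helix repressor that also acts in the circadian clock, and Tcf4 encodes an E protein (E2-2), not the Wnt effector TCF7L2 that is sometimes called TCF4. The binding sites of several of these families can be looked for by their letters. The RefSeq table of promoters (build GRCm38.p6) held windows for 4 of the 7 genes, Sall1, Mef2a, Mef2c and Bhlhe41, and those of Mef2a and Bhlhe41 are shown because each held the site that its own family binds, beside the first of 3 windows of Sall1, which held no match. Each stretch runs from 250 bases before to 30 bases after the annotated start, on the minus strand, and capitals mark matches on either strand to CTA and TAG with any 4 bases between them (a MEF2 site), CACGTG (the E-box bound by BHLHE41 and clock factors), TGCTGA (a MAF half-site) or GAGGAAG (a PU.1 site).
Sall1, chr8:89044133-89044412: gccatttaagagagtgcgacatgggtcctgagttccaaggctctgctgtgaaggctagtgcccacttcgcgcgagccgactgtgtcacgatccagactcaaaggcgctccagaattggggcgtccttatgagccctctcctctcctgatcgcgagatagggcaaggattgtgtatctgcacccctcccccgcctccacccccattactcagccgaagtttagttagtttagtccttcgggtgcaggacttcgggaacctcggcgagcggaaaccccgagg
Mef2a, chr7:67372829-67373108: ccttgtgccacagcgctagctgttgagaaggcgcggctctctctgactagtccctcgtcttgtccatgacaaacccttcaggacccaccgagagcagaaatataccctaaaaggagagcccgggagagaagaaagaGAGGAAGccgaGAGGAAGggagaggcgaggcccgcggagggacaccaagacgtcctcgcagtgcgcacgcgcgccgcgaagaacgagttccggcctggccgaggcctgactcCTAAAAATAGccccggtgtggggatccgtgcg
Bhlhe41, chr6:145865391-145865670: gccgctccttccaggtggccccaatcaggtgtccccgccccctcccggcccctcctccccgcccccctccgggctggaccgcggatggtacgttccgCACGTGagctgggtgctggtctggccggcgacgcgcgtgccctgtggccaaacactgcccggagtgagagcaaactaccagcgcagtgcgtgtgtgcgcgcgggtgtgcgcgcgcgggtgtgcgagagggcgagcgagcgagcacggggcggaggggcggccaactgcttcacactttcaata

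Positions of matches are counted from the annotated start of transcription, with the base before it at -1. The window of Mef2a held a MEF2 site whose first base was at -2, so that it ran across the start, and GAGGAAG at -114 and -103. The window of Bhlhe41 held CACGTG at -153, which is also a match to CANNTG, the general E-box of E proteins, and held CANNTG at 3 further places. Among Mef2c's 3 windows, one held GAGGAAG at -186 and one TGCTGA at -104, and none held the MEF2 site. Of all 32851 windows of 300 bases in the table, 3.69% held the MEF2 site, 7.15% CACGTG, 72.3% CANNTG, 19.5% TGCTGA and 13.6% GAGGAAG. Binding was not measured, and a match is a description of the letters only.

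All 7 genes had higher FPKM in every BSM library than in any BMDM library, a pattern that 11.6% of the 6364 genes tested (FPKM of at least 3 in at least 1 library) showed in this direction. By limma on log2(FPKM + 1) with Benjamini-Hochberg adjustment over those genes, Sall1, Maf, Mef2a, Mef2c and Bhlhe41 were higher in BSM, as were 9.22% of all genes tested, Tcf4 missed the threshold of 0.05, and Sall3 was too low to be tested. Sall1, Maf and Bhlhe41 reached the minimum only through BSM and therefore had to differ, whereas Mef2a, Mef2c and Tcf4 reached it in both cell types. A single gene compared over 3 libraries against 3 cannot reach a two-sided p below 0.1 in an exact permutation test. In bulk samples, fewer cells of a type and less RNA per cell cannot be told apart.

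**Figure D1:**
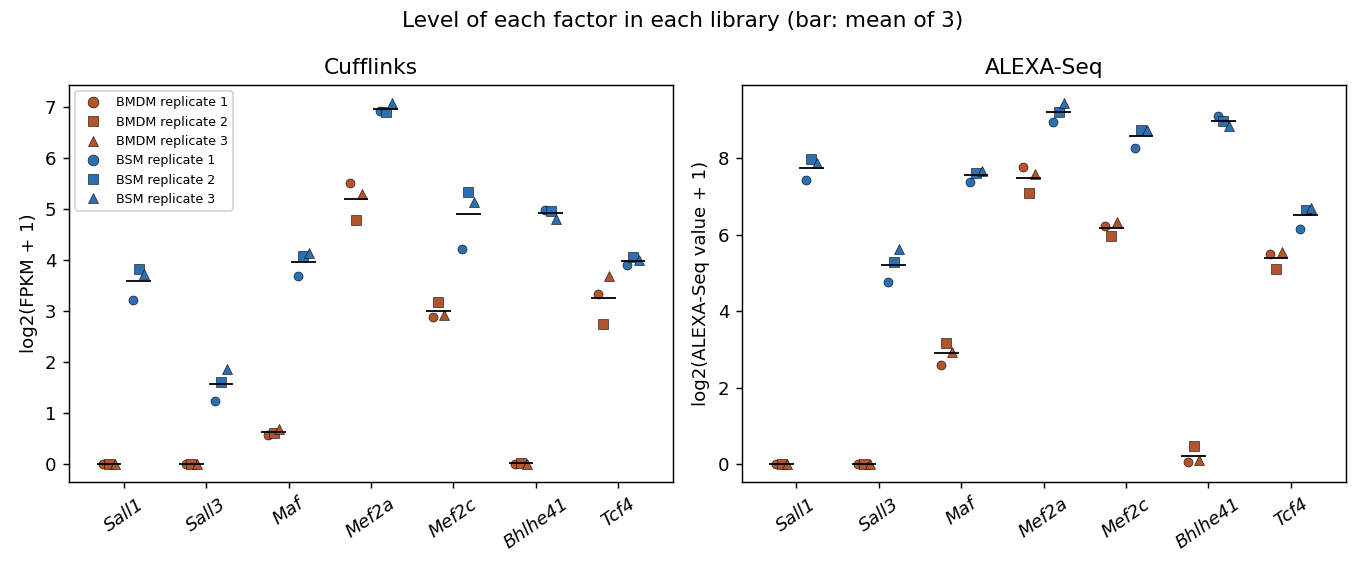
Level of the 7 genes in each of the 6 libraries, as log2(FPKM + 1) from Cufflinks (left) and log2(value + 1) from ALEXA-Seq (right); orange marks BMDM, blue marks BSM, the shape gives the replicate and the bar is the mean of 3 libraries. Every BSM point lies above every BMDM point of its gene in both panels, with the narrowest gap for Tcf4 in FPKM (11.8 in BMDM replicate 3 and 14.0 in BSM replicate 1).

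Sall1 (mm9 chr8:91551147-91568061) was listed at 0 in all 3 BMDM libraries and had 8.31, 13.2 and 12.2 FPKM in BSM replicates 1, 2 and 3. The groups did not overlap, and BSM replicate 1 was the lowest of its group. The log2 fold change was 3.59 (SE 0.258, adjusted p = 3.17e-05 by limma), and no ratio of levels is given against a group listed at 0. In the ALEXA-Seq table, whose unit is not named, Sall1 was also listed at 0 in BMDM and had 170 to 248 in BSM.

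Sall3 (mm9 chr18:81163115-81183317), the close relative of Sall1, showed the same order at a lower level, with 0 in every BMDM library and 1.37, 2.04 and 2.66 FPKM in BSM. It stayed below the minimum of 3 FPKM. With the minimum at 1 FPKM, where 9637 genes were tested, 7.66% were higher in BSM and 11.2% had every BSM library above every BMDM library, its log2 fold change was 1.57 (SE 0.235, limma adjusted p = 0.00141). It passed that minimum through BSM alone and so had to differ, and the same holds for its ALEXA-Seq values. The ALEXA-Seq values of Sall3 were 25.9, 37.8 and 48.4 in BSM and 0 in BMDM, and its log2 fold change there was 5.22 (SE 0.525, adjusted p = 0.000355 by limma), a table in which 10.9% of genes tested were higher in BSM and 14.6% had every BSM library above every BMDM library.

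Of the other Spalt genes, Sall4 was at or near 0 in every library. Sall2 had 0.20, 0.25 and 0.06 FPKM in BMDM and 0.95, 2.46 and 2.20 in BSM, below the minimum but again without overlap. With ALEXA-Seq values Sall2 was higher in BSM (log2 fold change 3.27, SE 0.613, limma adjusted p = 0.00524). Like Sall3, it entered that test through BSM alone and so had to differ. As a share of the family's summed FPKM, which no scaling between libraries can alter, Sall1 made up 78.2%, 74.5% and 71.5% in BSM, Sall3 12.9%, 11.6% and 15.5%, and Sall2 nearly all of the rest. All of the small sum in BMDM, 0.06 to 0.25 FPKM, was Sall2. Sall1 and Sall3 are also expressed outside microglia, so the markers of other brain cells were summed beside them. The neuron markers reached at most 0.25 FPKM in BSM and the oligodendrocyte markers at most 1.21. The astrocyte markers summed to 0.02 to 0.10 FPKM in BMDM and 5.31 to 9.52 in BSM, nearly all of it in BSM Slc1a3, a glutamate transporter. Gfap of the same list was at 0 in all 6 libraries. Aqp4, also of that list, was at 0 in BMDM and in BSM replicate 1, and had 0.12 and 0.14 FPKM in BSM replicates 2 and 3. The astrocyte sum was highest in BSM replicate 1, where Sall1 and Sall3 were lowest, and its part in the result was not tested.

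Over all 6 libraries and without further scaling, no tested gene of the NuRD complex, which Spalt proteins recruit, was higher in BSM. Of 15 genes in the list of Spalt relatives and NuRD subunits, 11 were tested, 0 were higher in BSM by limma (also 0 at an unadjusted p under 0.05), 7 were higher in BMDM and 4 did not pass, with a median log2 difference of -1.18 beside -0.81 over all genes, of which 45.3% were higher in BMDM. Mbd2, the methyl-DNA binding subunit, had 67.5, 65.6 and 76.7 FPKM in BMDM and 3.53, 13.1 and 11.9 in BSM (log2 fold change -2.92, SE 0.429, limma adjusted p = 0.00104). It was lower in BSM after quantile normalization too (-2.13, adjusted p = 0.00548), and so was the ATPase subunit Chd4 (-1.47 and then -0.71, adjusted p = 0.0426). The deacetylase Hdac2 (-1.71) and the histone chaperone Rbbp7 (-1.68) passed without further scaling but not with quantile normalization (adjusted p = 0.223 and 0.121). Under that normalization 1 gene of the list was higher in BSM and 2 in BMDM. The former was Chd3, another ATPase subunit, named after its values were seen, which had 1.00, 0.58 and 1.25 FPKM in BMDM and 0.88, 2.03 and 7.78 in BSM. Its groups overlapped and it reached the minimum through BSM replicate 3 alone. Without BSM replicate 1 it passed toward BSM without further scaling (1.42, limma adjusted p = 0.033). Its log2 fold change of 1.75 after quantile normalization (adjusted p = 0.0244) did not pass with the same summed FPKM (1.68, adjusted p = 0.0634), where Mbd2 was the 1 gene of the list that passed, or with ALEXA-Seq values (0.59, adjusted p = 0.254).

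**Figure D2:**
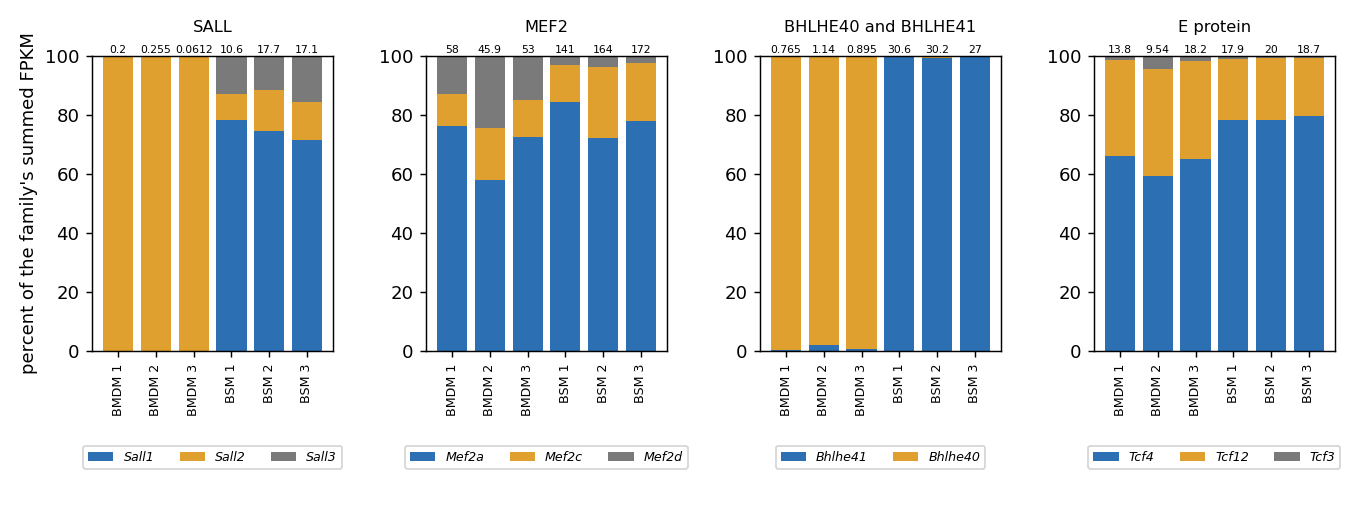
Share of each gene in the summed FPKM of its family (percent, vertical axis) in each library, with the summed FPKM printed above each bar; members of a family that are not drawn were at or near 0, and the SALL sums in BMDM are only 0.06 to 0.25 FPKM. Bhlhe41 made up at least 99.4% of the Bhlhe40 and Bhlhe41 sum in each BSM library and at most 2.02% in BMDM, and the share of Mef2d was lower in every BSM library than in any BMDM library.

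Maf (mm9 chr8:118206842-118231694) was low in BMDM, with 0.49, 0.54 and 0.61 FPKM, and reached 11.9, 15.8 and 16.5 FPKM in BSM. The means were 0.55 ± 0.06 and 14.7 ± 2.49 FPKM (SD, n = 3 each), a ratio of 26.9. The groups did not overlap and the spread within BMDM was narrow. The log2 fold change was 3.33 (SE 0.232, limma adjusted p = 2.8e-05), and the ALEXA-Seq values rose from 5.01, 7.99 and 6.69 to 165, 195 and 200.

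Other members of the MAF family, Mafa and Nrl, were at or near 0 in every library. Markers of perivascular macrophages, the brain's other macrophages, summed to 1.77 to 2.76 FPKM in BMDM and 0.54 to 4.28 in BSM, lowest in BSM replicate 1, where Maf was also the lowest of its group. Genes of that list went in different directions. Lyve1 had at most 0.01 FPKM in BMDM and 0, 1.87 and 0.57 in BSM, whereas Cbr2 had 0.39, 0.28 and 0.18 in BMDM and at most 0.10 in BSM. The part of such cells in the result was not tested. Among the 10 MAF relatives and partner bZIP genes reported here, 5 were tested, 0 were higher in BSM by limma (also 0 at an unadjusted p under 0.05) and 1 was higher in BMDM, with a median of -0.60, beside 9.22%, 45.3% and -0.81 over all genes tested. The latter was Nfe2, a blood cell bZIP factor that pairs with small MAF proteins, which fell from 7.0, 15.4 and 10.0 FPKM to at most 0.06 (log2 fold change -3.44, SE 0.309, limma adjusted p = 9.28e-05). It passed in the same direction after quantile normalization (-2.91), and since it reached the minimum only through BMDM it had to differ.

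Bhlhe41 (mm9 chr6:145806763-145814078) showed the sharpest contrast of the 7 genes in FPKM. It had 0.0027, 0.0231 and 0.00727 FPKM in BMDM and 30.6, 30.0 and 26.9 in BSM, where the mean was 29.2 ± 2.00 FPKM (SD, n = 3). Every BMDM library was close to 0 and the BSM libraries lay within a narrow range. The log2 fold change of 4.90 (SE 0.211, limma adjusted p = 3.07e-06) ranked 24th toward BSM among the 6364 genes. Its ratio of means, 2649, rests on values near 0 in BMDM and was 5852 without BMDM replicate 2. In the ALEXA-Seq table the gene had at most 0.40 in BMDM and 453 to 544 in BSM.

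Its paralog Bhlhe40, which binds the same E-box, went the opposite way at a low level, with 0.76, 1.12 and 0.89 FPKM in BMDM and 0, 0.20 and 0.09 in BSM, too low to be tested. Bhlhe41 therefore made up 0.35%, 2.02% and 0.81% of the sum of the pair in BMDM and 100%, 99.4% and 99.7% in BSM. Of 15 genes in the list of its relatives and the circadian clock, only 5 reached the minimum, 0 were higher in BSM by limma (also 0 at an unadjusted p under 0.05) and 2 were higher in BMDM, with a median of -1.23, against 9.22%, 45.3% and -0.81 over all genes. The latter were Nfil3 (log2 fold change -1.75, limma adjusted p = 0.00131) and Dbp (-1.24, adjusted p = 0.0283), bZIP factors that act on the same clock targets in opposite senses, and both reached the minimum only through BMDM. Neither passed after quantile normalization (adjusted p = 0.0554 and 0.375), but Nfil3 passed in the same direction with the same summed FPKM (-1.04, adjusted p = 0.0171) and with ALEXA-Seq values (-2.99, adjusted p = 0.00241). After quantile normalization Rora, a nuclear receptor of the clock named after its values were seen, was the 1 gene of the list past the threshold toward BSM (log2 fold change 1.54, adjusted p = 0.027). It reached the minimum through BSM replicate 1 alone, with 4.98 FPKM there, 1.28 and 1.34 in the other BSM libraries and 0.58 to 0.71 in BMDM, without overlap. Rora did not pass without further scaling (0.96, limma adjusted p = 0.0835). It passed toward BSM with the same summed FPKM (1.64, adjusted p = 0.0251) and when BSM replicate 1 was left out (0.50, adjusted p = 0.0452). In the ALEXA-Seq table Dbp overlapped between the groups, with 1.39 to 9.59 in BMDM and 2.68 to 5.15 in BSM. The core clock gene Clock had 2.27 to 3.41 FPKM in BMDM and 2.32 to 2.60 in BSM and did not pass without further scaling (-0.19, adjusted p = 0.517), but was higher in BSM with the same summed FPKM (0.76, adjusted p = 0.0449).

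Mef2a (mm9 chr7:74376049-74517744) had the highest FPKM of the 7 genes in every library of both cell types. It had 44.3, 26.7 and 38.4 FPKM in BMDM and 119, 118 and 134 in BSM, with means of 36.4 ± 8.97 and 124 ± 8.56 FPKM (SD, n = 3 each). The groups did not overlap, and BMDM replicate 2 was the lowest library. The ratio of means was 3.40 and the log2 fold change 1.77 (SE 0.247, limma adjusted p = 0.000843). BMDM replicate 2 also had the highest sum of granulocyte markers, whose part in the result was not tested. Without this library the log2 fold change of Mef2a was 1.56 and still passed (limma adjusted p = 0.00209).

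Mef2c (mm9 chr13:83643194-83802927) had 6.36, 8.07 and 6.63 FPKM in BMDM and 17.6, 39.4 and 34.2 in BSM, means of 7.02 ± 0.92 and 30.4 ± 11.4 FPKM (SD, n = 3 each). The groups did not overlap, and BSM replicate 1, the library with the lowest RNA integrity, lay well below the other BSM libraries. Its log2(FPKM + 1) values correlated with theirs at 0.79 and 0.80 over the genes tested, against 0.97 between those 2 libraries, and the part of RNA quality in the result was not tested. The ratio of means was 4.33 and the log2 fold change 1.90 (SE 0.326, limma adjusted p = 0.00212). Without BSM replicate 1 it was 2.24. Mef2c is also expressed in neurons and endothelial cells. The neuron markers were near 0, as given above. The endothelial markers summed to 2.35 to 4.03 FPKM in BMDM and 1.04 to 2.80 in BSM. Most of the BSM sum was Pecam1, with 1.04, 1.81 and 1.93 FPKM. Flt1 of that list had 0.85 FPKM in BSM replicate 3, and Cldn5 was at 0 in BSM. The part of such cells in the result was not tested. ALEXA-Seq values gave both MEF2 genes higher in BSM as well, by 1.71 (Mef2a, limma adjusted p = 0.00171) and by 2.41 (Mef2c, adjusted p = 0.000297).

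The third MEF2 gene expressed here, Mef2d, had 7.42, 11.1 and 7.90 FPKM in BMDM and 4.33, 5.96 and 3.82 in BSM. It was lower in BSM without further scaling (log2 fold change -0.78, SE 0.263, limma adjusted p = 0.0361) but missed the threshold with ALEXA-Seq values (-0.67, adjusted p = 0.123) and after quantile normalization (-0.04, adjusted p = 0.911), and scaling to the same sum turned its direction (0.35, adjusted p = 0.258). Within the family Mef2d was 12.8%, 24.3% and 14.9% of the summed FPKM in BMDM and 3.06%, 3.64% and 2.23% in BSM, without overlap (exact permutation test, two-sided p = 0.1, the smallest it can give). Over the 10 shares tested in this way across 4 families, the smallest p after Benjamini-Hochberg adjustment was 0.125. The shares of Mef2a, 69.0% ± 9.59 in BMDM and 78.2% ± 6.10 in BSM (SD, n = 3 each), overlapped (exact permutation test, two-sided p = 0.3). Mef2b was at or near 0 in every library, and the family's sum was 45.9 to 58.0 FPKM in BMDM and 141 to 172 in BSM.

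Among the MEF2 family and its regulators, 7 of 10 genes were tested, of which 1 was higher in BSM and 4 in BMDM, with a median of -0.98, where 9.22% of all genes tested were higher in BSM and 45.3% in BMDM and their median was -0.81. The gene higher in BSM was Hdac9, a class IIa deacetylase that binds MEF2 proteins and represses their targets. It had 1.92, 2.87 and 3.32 FPKM in BMDM and 8.58, 5.12 and 5.25 in BSM (log2 fold change 0.97, SE 0.284, limma adjusted p = 0.0216), and is named after its values were seen, as is Mapk7. The other class IIa deacetylase that passed, Hdac7, had 1.33, 3.25 and 3.47 FPKM in BMDM and at most 0.24 in BSM (log2 fold change -1.63, adjusted p = 0.00621), so that it reached the minimum only through BMDM. The coactivator Ncoa2 (-1.04) and the kinase Mapk7 (-0.98), which activates MEF2 proteins, were the other genes lower in BSM beside Mef2d, and Mapk7 too reached the minimum only through BMDM. After quantile normalization Hdac9 was higher in BSM by 1.78 (adjusted p = 0.00106), and 0 genes of the list were higher in BMDM by limma (1 at an unadjusted p under 0.05), with adjusted p = 0.0593 for Hdac7.

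Tcf4 (mm9 chr18:69503800-69847579) had the smallest fold change of the 6 genes tested. It had 9.15, 5.67 and 11.8 FPKM in BMDM and 14.0, 15.6 and 14.9 in BSM, means of 8.89 ± 3.09 and 14.8 ± 0.82 FPKM (SD, n = 3 each) and a ratio of 1.67. The groups did not overlap, but the gap between BMDM replicate 3 and BSM replicate 1 was smaller than the range within BMDM. The log2 fold change of 0.73 (SE 0.285, unadjusted p = 0.0344) did not pass after Benjamini-Hochberg adjustment in limma (adjusted p = 0.0604). It was 1.49 after quantile normalization (adjusted p = 0.00585), where 19.3% of all genes were higher in BSM and 21.7% in BMDM, and 1.92 with the same summed FPKM (adjusted p = 0.00228), where 24.9% were higher in BSM. From ALEXA-Seq values it was 1.11 (adjusted p = 0.0185). In that table the BMDM libraries had 43.9, 33.6 and 46.1 and the BSM libraries 70.4, 99.4 and 102. With library quality weights it was 0.53 (adjusted p = 0.0192), so the call depends on the table and the processing.

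As a share of the E proteins' summed FPKM, which is free of scaling between libraries, Tcf4 made up 66.1%, 59.5% and 64.9% in BMDM and 78.4%, 78.1% and 79.8% in BSM (means 63.5% ± 3.55 and 78.8% ± 0.90, SD, n = 3 each). These shares did not overlap, and the exact permutation test gave its smallest possible two-sided p, 0.1. In ALEXA-Seq values the shares of Tcf4 were lower, 38.3%, 35.6% and 34.3% in BMDM and 52.4%, 59.0% and 63.3% in BSM, again without overlap, and Tcf12 made up most of the sum in BMDM (60.1% ± 2.16, SD, n = 3). Whether ALEXA-Seq values are scaled by gene length is not given, so levels of different genes may not be comparable in them. Tcf12, the other E protein gene with a sizeable level, had 4.52, 3.46 and 6.07 FPKM in BMDM and 3.68, 4.25 and 3.67 in BSM, and did not pass (log2 fold change -0.20, limma adjusted p = 0.522), but with the same summed FPKM its direction turned and it passed toward BSM (0.86, adjusted p = 0.0339). Tcf3 stayed below 0.42 FPKM in every library. Tcf4 is also known from plasmacytoid dendritic cells and B cells. Markers of plasmacytoid dendritic cells summed to 1.07 to 3.76 FPKM in BMDM and 0.36 to 1.46 in BSM, with Klk1 at 0 in all 6 libraries, and B lymphocyte markers to 0.38 to 6.18 and 0.32 to 0.46. BMDM replicate 2 had the highest sum of both lists, with 2.60 FPKM from Irf7 and 3.29 from Vpreb1, and the lowest Tcf4. Without this library the log2 fold change of Tcf4 was 0.47 (limma adjusted p = 0.133). The part of such cells in the result was not tested. Of 8 genes in the list of E proteins and their Id inhibitors, which also held Tal1 and Lyl1, 3 were tested, 0 were higher in BSM by limma (also 0 at an unadjusted p under 0.05) and 1 was higher in BMDM, with a median of -0.39 (over all genes 9.22%, 45.3% and -0.81). That gene was Id2, an inhibitor of E proteins, with 2.01, 3.66 and 3.68 FPKM in BMDM and 0.05, 1.10 and 1.06 in BSM (log2 fold change -1.29, limma adjusted p = 0.0204), and it reached the minimum only through BMDM. It did not pass after quantile normalization (-0.41, adjusted p = 0.229). Tal1, named after its values were seen, was too low to be tested. Its FPKM were 0.08, 0.21 and 0.06 in BMDM and 1.18, 1.24 and 1.06 in BSM, without overlap.

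Among the paralogs and partners named here, Mbd2, Chd4, Nfe2, Hdac7 and Nfil3 passed without any 1 library, and the others did not (adjusted p by limma). Of these 5, Nfe2, Hdac7 and Nfil3 were at or above the minimum in BMDM alone and therefore had to differ. Hdac2 was lost without BMDM replicate 1, 2 or 3 (adjusted p = 0.09, 0.0563 and 0.0992), and Rbbp7, Ncoa2 and Id2 without BMDM replicate 2 (0.0609, 0.055 and 0.0614) or 3 (0.073, 0.056 and 0.0779). Mef2d was lost without BMDM replicate 1, 2 or 3 (0.0556, 0.109 and 0.0868) or BSM replicate 3 (0.121), and Hdac9 without BMDM replicate 1 or 2 (0.0776 and 0.0567). Mapk7 was lost without BMDM replicate 3 or BSM replicate 2 (0.0866 and 0.0703), and Dbp without BMDM replicate 2 or 3 (0.0993 and 0.0867) or BSM replicate 1 or 2 (0.0585 and 0.0833). After quantile normalization the median of the list changed sign for MAF relatives (0.17) and E proteins (0.44) and stayed negative for the other 3 lists (-0.50 for NuRD, -0.18 for MEF2 regulators and -0.39 for clock genes).

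**Figure D3:**
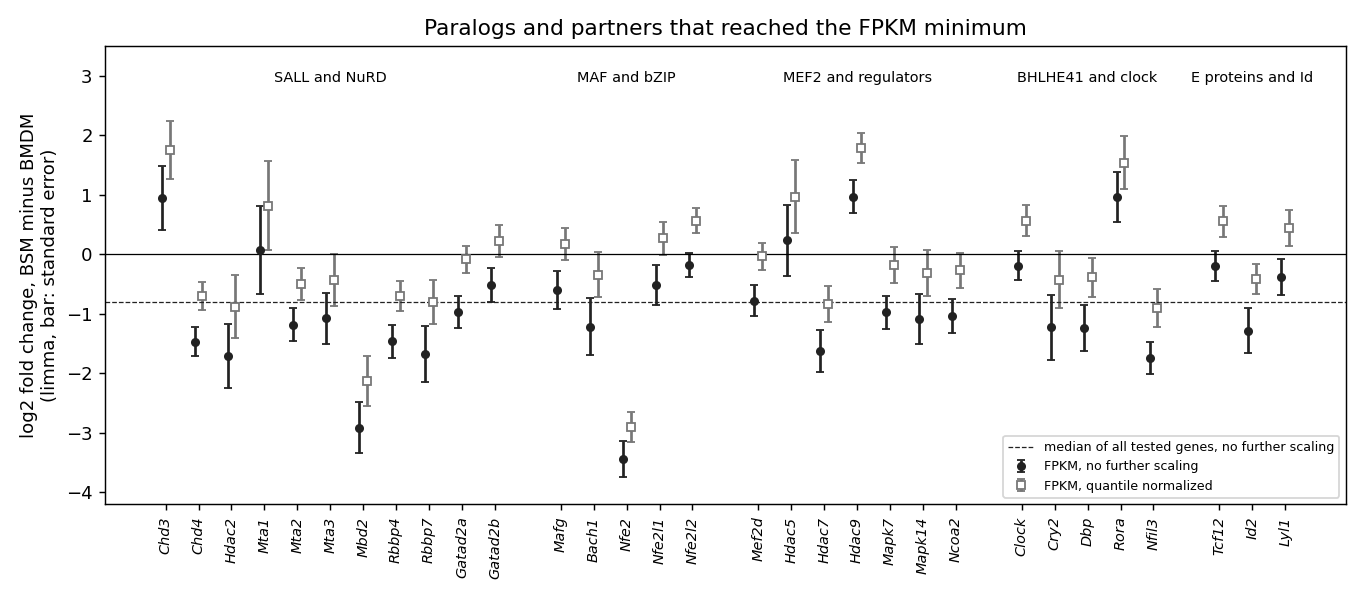
log2 fold change (BSM minus BMDM, limma, bars show the standard error) of the 31 tested paralogs and partners, without further scaling (filled) and after quantile normalization (open); the dashed line is the median of all genes tested, -0.81. Nfe2 (-3.44) and Mbd2 (-2.92) lie below the rest, and without further scaling the others lie between -1.75 (Nfil3) and 0.97 (Hdac9).

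**Figure D4:**
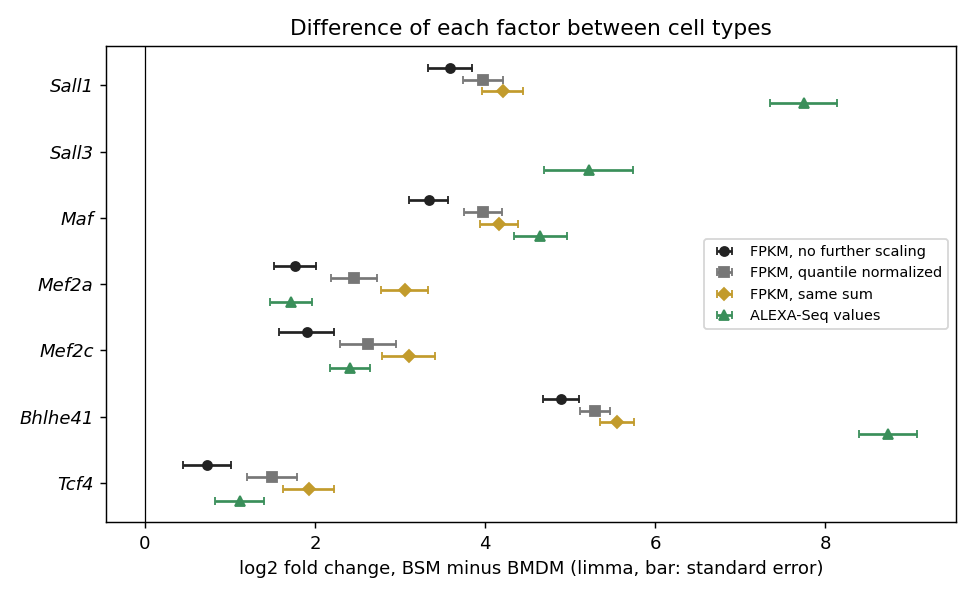
log2 fold change (BSM minus BMDM, limma, bars show the standard error) of the 7 genes without further scaling, after quantile normalization, after scaling to the same summed FPKM, and from ALEXA-Seq values, which are on another scale; Sall3 has an ALEXA-Seq point only, since its FPKM stayed below the minimum. Every point lies above 0, and Tcf4 lies closest to it (0.73 without further scaling).

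Levels in FPKM were ordered within each cell type as a description. In BSM the order by mean was Mef2a, Mef2c, Bhlhe41, Tcf4, Maf, Sall1 and Sall3. The ranges of Mef2c and Bhlhe41 overlapped, as did those of Tcf4 and Maf and those of Maf and Sall1, although Maf was above Sall1 in all 3 libraries. In BMDM the order was Mef2a, Tcf4, Mef2c, Maf and Bhlhe41, with Sall1 and Sall3 at 0, and only the ranges of Tcf4 and Mef2c overlapped. Counted by rank among all 35237 genes of a library, Mef2a moved from 364th, 744th and 484th in BMDM to 64th, 60th and 50th in BSM. Bhlhe41 moved from 16643rd, 13557th and 15800th to 326th, 339th and 348th, and Maf from 8932nd, 9215th and 8872nd to 983rd, 669th and 603rd. Tcf4, the gene whose call depended on the table and the processing, moved from 1942nd, 3402nd and 1753rd to 809th, 680th and 681st, without overlap. A move in rank alone does not show a higher FPKM. Nfe2l2 of the MAF list, named after its values were seen, had lower FPKM in every BSM library than in any BMDM library. Its rank still moved from 998th, 1269th and 1149th to 812th, 697th and 665th. The direction of Nfe2l2 depended on the scaling. It did not pass without further scaling (log2 fold change -0.19, limma adjusted p = 0.46). With the same summed FPKM it was higher in BSM (1.05, adjusted p = 0.00507). The share of all genes whose ranks moved up without overlap was not determined.

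**Figure D5:**
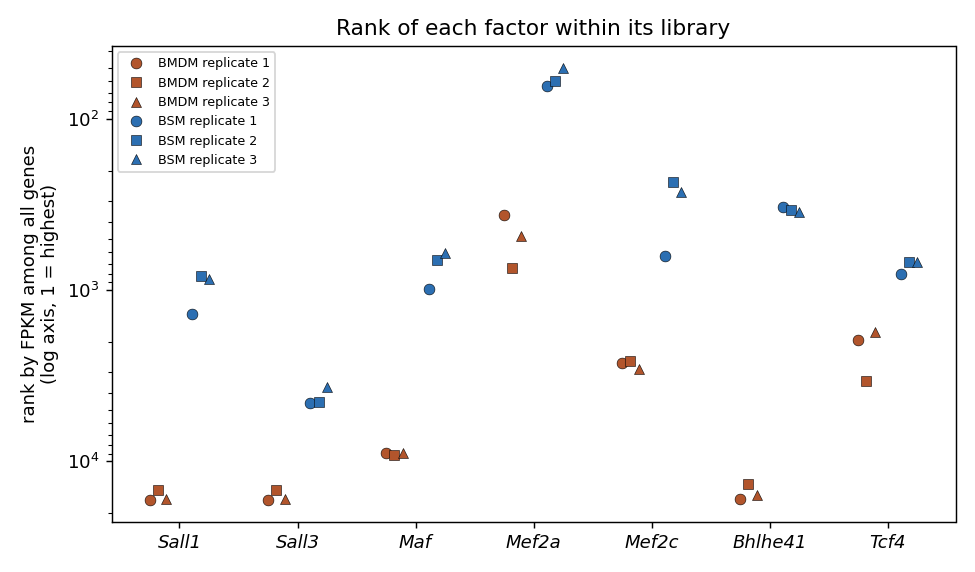
Rank of each gene by FPKM among the 35237 genes of its library (log axis, 1 is the highest level) for the 3 BMDM (orange) and 3 BSM (blue) libraries; genes listed at 0 share the rank of all genes at 0. Mef2a lies highest in every library, from 744th in BMDM replicate 2 to 50th in BSM replicate 3.

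Genes with similar levels over the 6 libraries were found for each of the 6 genes tested by Euclidean distance on log2(FPKM + 1). They were Tspan7 (distance 0.48) for Sall1, Cd9 (0.67) and Itgb5 (0.69) for Maf, and Adamts1 (0.30) and Tanc2 (0.46) for Bhlhe41. For the genes expressed in both cell types they were Rgs10 (0.99) and Abca9 (1.07) for Mef2a, Hpgd (0.53) and Spata13 (1.01) for Mef2c, and Dmtf1 (0.29) and Rnf13 (0.53) for Tcf4. Adamts1, a secreted metalloprotease, was listed at 0 in all BMDM libraries and had 27.3, 35.7 and 25.7 FPKM in BSM. Dmtf1, a Myb-like transcription factor, had 9.20, 6.92 and 10.9 FPKM in BMDM and 13.5, 14.6 and 15.1 in BSM, so that BMDM replicate 2 was the lowest library for it as for Tcf4.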

How the data were processed

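RNA from sorted cells of both cell types was sequenced in 6 libraries, 3 per cell type, grouped and numbered by the sample labels. Per the labels, the submitters' processing notes name CASAVA 1.7.0, TopHat 1.3.1, Bowtie 0.12.7, Cufflinks 1.0.3 and the mouse build mm9. The authors deposited FPKM per gene from Cufflinks, and an ALEXA-Seq expression signal per gene whose unit and normalization are not given in the sources used here. Neither table holds read counts, so the depth behind a value was not derived and no counting interval is given.

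The members, the lists of related genes and the marker lists were chosen with earlier results of these data known, and the promoter motifs after the sequences were seen. Genes with at least 3 FPKM in at least 1 library were tested with limma 3.58.1 (R 4.3.3, mean-variance trend) on log2(FPKM + 1), with Benjamini-Hochberg adjustment over the 6364 genes and a threshold of 0.05. A fold change on this scale understates the change of low genes. The same test was run on log2(ALEXA-Seq value + 1) over as many genes with the highest values, and the code was tested on simulated data. Exact permutation tests (two-sided) were run on family shares. Alternatives were the pseudocount, the minimum, upper quartile, quantile and same-sum scaling, no trend, library quality weights, the replicate block and leaving out each library. The text names all 7 members, their paralogs, genes of each related list past the test with a log2 fold change of at least 1 in size (at most the 4 largest in each direction), and up to 2 genes most like each member. Results for some genes that this rule names are not reported here. The spans of 7538 of 17762 genes matched the annotation when starts were counted from 0, and those of 265 when counted from 1, so 1 was added to the starts. Samples were not paired by replicate number in the main test. The study's arrays were not used here.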

Additional observations from a re-analysis of the deposited data

How the results depend on the processing

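For Sall1, Sall3, Maf, Mef2a, Mef2c and Bhlhe41 the direction and the side of the threshold held under every alternative run that tested the gene, and the number of members higher in BSM stayed at 5 when any 1 library was left out. Sall1, Sall3, Maf and Bhlhe41 passed the minimum used for them through BSM alone and so had to differ. Their stability is therefore no further support. The minimum was applied before a library was left out. Tcf4, at 0.73 and not called, passed with upper quartile scaling (1.51), quantile normalization (1.49), the same summed FPKM (1.92), library quality weights (0.53), ALEXA-Seq values (1.11) and those values with quantile normalization (1.97, chosen after seeing the data), and ran from 0.47 to 0.94 without 1 library. Scaling to the same sum moved the ratios of means to 67.1 for Maf, 8.36 for Mef2a, 10.8 for Mef2c, 6977 for Bhlhe41 and 4.10 for Tcf4, and that of Bhlhe41 ran from 1924 to 5852 without 1 library. Over all genes, 587 were higher in BSM and 2883 in BMDM. These counts became 1051 and 1380 with upper quartile scaling, 1227 and 1378 with quantile normalization, 1582 and 973 with the same sum, and 1349 and 1439 with quantile-normalized ALEXA-Seq values. Library quality weights gave 881 higher in BSM. The main test did not pair samples by replicate number. Correlations of same-numbered deviations were -0.02, -0.01 and 0.13, the last being the highest of any BMDM and BSM pair. With 3 libraries per group these values cannot show whether same-numbered libraries were paired. With the replicate block Tcf4 stayed at 0.73 (limma adjusted p = 0.0774), and the block changed no call of a member.

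For Spalt relatives and NuRD genes (0 higher in BSM, 7 in BMDM), the count higher in BSM was 1 with the minimum at 1, with no minimum, with quantile normalization and with ALEXA-Seq values, and 2 with quantile-normalized ALEXA-Seq values. The gene counted with ALEXA-Seq values was Sall2, not a NuRD gene. The count higher in BMDM was 2 with upper quartile scaling, 2 with quantile normalization, 1 with the same sum and 3 with quantile-normalized ALEXA-Seq values. Leaving out 1 library gave 0 to 1 and 4 to 10. For MAF relatives (0 and 1), 1 was higher in BSM with upper quartile scaling and 1, Nfe2l2, with the same sum. In BMDM 2 were higher with quality weights and the replicate block, and without 1 library the counts were 0 and 1 to 2. For MEF2 regulators (1 and 4), the counts were 0 and 2 with no minimum. The count higher in BMDM was 1 with upper quartile scaling and the same sum, 0 with quantile normalization, and 0 of 5 genes tested with both forms of ALEXA-Seq values, where Hdac7 and Mapk7 were not tested. Without 1 library the counts were 0 to 1 and 1 to 6. For clock genes (0 and 2), 1 was higher in BSM with the minimum at 1, upper quartile scaling, quantile normalization, quality weights and both forms of ALEXA-Seq values, and 2 with the same sum. In BMDM 4 were higher with the minimum at 1, 1 with upper quartile scaling, the same sum and both forms of ALEXA-Seq values, and 0 with quantile normalization. Without 1 library the counts were 0 to 1 and 1 to 3. For E proteins (0 and 1), 1 was higher in BSM with the minimum at 1, with no minimum and with the same sum, and 0 in BMDM with a pseudocount of 0.1, with the 3 scalings and with both forms of ALEXA-Seq values. Without 1 library 0 were higher in BSM and 0 to 1 in BMDM. The cause of these changes was not tested, and no counting error can be given for genes near 0.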
